A study of Mus musculus with 36 samples.

Results

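RNA of small intestine from mice challenged with gluten was compared between 4 libraries labelled LPL, lamina propria preparations, and 4 libraries of whole tissue. These are 8 of the 36 samples of the series, taken by their labels alone, and the comparison covered every gene with enough reads, 14423 of 27179 gene IDs. The mice were labelled lnc13-WT-DQ8 or lnc13-KO-DQ8, so the groups shared the gluten challenge and DQ8 and differed in lnc13, a long noncoding RNA. Each preparation had 2 libraries of each genotype, and genotype was a covariate in the fit. Values of lnc13 itself were not analysed here.

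Whole tissue had been snap frozen, ground under liquid nitrogen and extracted with TRIzol, whereas RNA of cells came from a Quick-RNA Miniprep kit, per the labels' protocols. Preparation and extraction method therefore cannot be told apart. Tissue and LPL libraries had been made from polyA RNA with the same NEBNext Ultra II kit. The age of the mice, the way the cells were isolated, and whether 1 animal gave both a tissue and an LPL sample were not given in the sources used here. The titles call the replicates biological, and p-values measure the spread between these libraries. For orientation, 4 IEL (intraepithelial lymphocyte) libraries, 2 per genotype, are cited beside some results.

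The lamina propria is the loose connective tissue beneath the epithelium of the gut. It houses IgA-secreting plasma cells, T cells and macrophages among fibroblasts, capillaries, lymphatics, nerve fibres and thin strands of smooth muscle, and the muscle coats, the nerve plexuses and the mesothelium lie outside it. The epithelium above it renews itself from stem cells in the crypts and matures into absorptive cells on the villi, with goblet, Paneth, tuft and hormone-secreting cells in between.

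The 8 libraries held 10829352 to 13620975 reads in genes. The first principal component, with 70.6% of the variance, separated the preparations. The LPL library WT 1 stood apart from the other LPL libraries on the second component and in its leukocyte genes. Both tissue libraries numbered 2 carried Y-linked Ddx3y (32.9 and 36.9 CPM, read counts scaled to a common library total) and almost no Xist, whereas all LPL libraries carried Xist (253 to 388 CPM) and were near 0 for Ddx3y. The same 2 tissue libraries were at 0.319 and 0.343 CPM for lactase, Lct, against 82.8 and 211 CPM in the other tissue libraries. Sex, and the level of a gene that marks proximal intestine, thus differed within tissue, and many of the results below are given with and without these libraries.

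Of the 14423 genes, 4006 were higher in LPL (27.8%) and 3735 were lower (25.9%) at an adjusted p under 0.05 by edgeR's quasi-likelihood test, 7741 in all (53.7%). The median over all genes was 0.08 on the log2 scale. In 7592 genes (52.6%) the 4 LPL libraries lay wholly on one side of the 4 tissue libraries. A test against a fold of 2 kept 891 higher genes (6.18%) and 1454 lower genes (10.1%). With more than 1 gene in 2 called, a call for a single gene says little about what is particular to it, and counts of gene groups below are to be read against these shares. Without both tissue libraries numbered 2, 2369 genes were higher (16.2%) and 3166 were lower (21.6%), 37.8% in all.

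**Figure D1:**
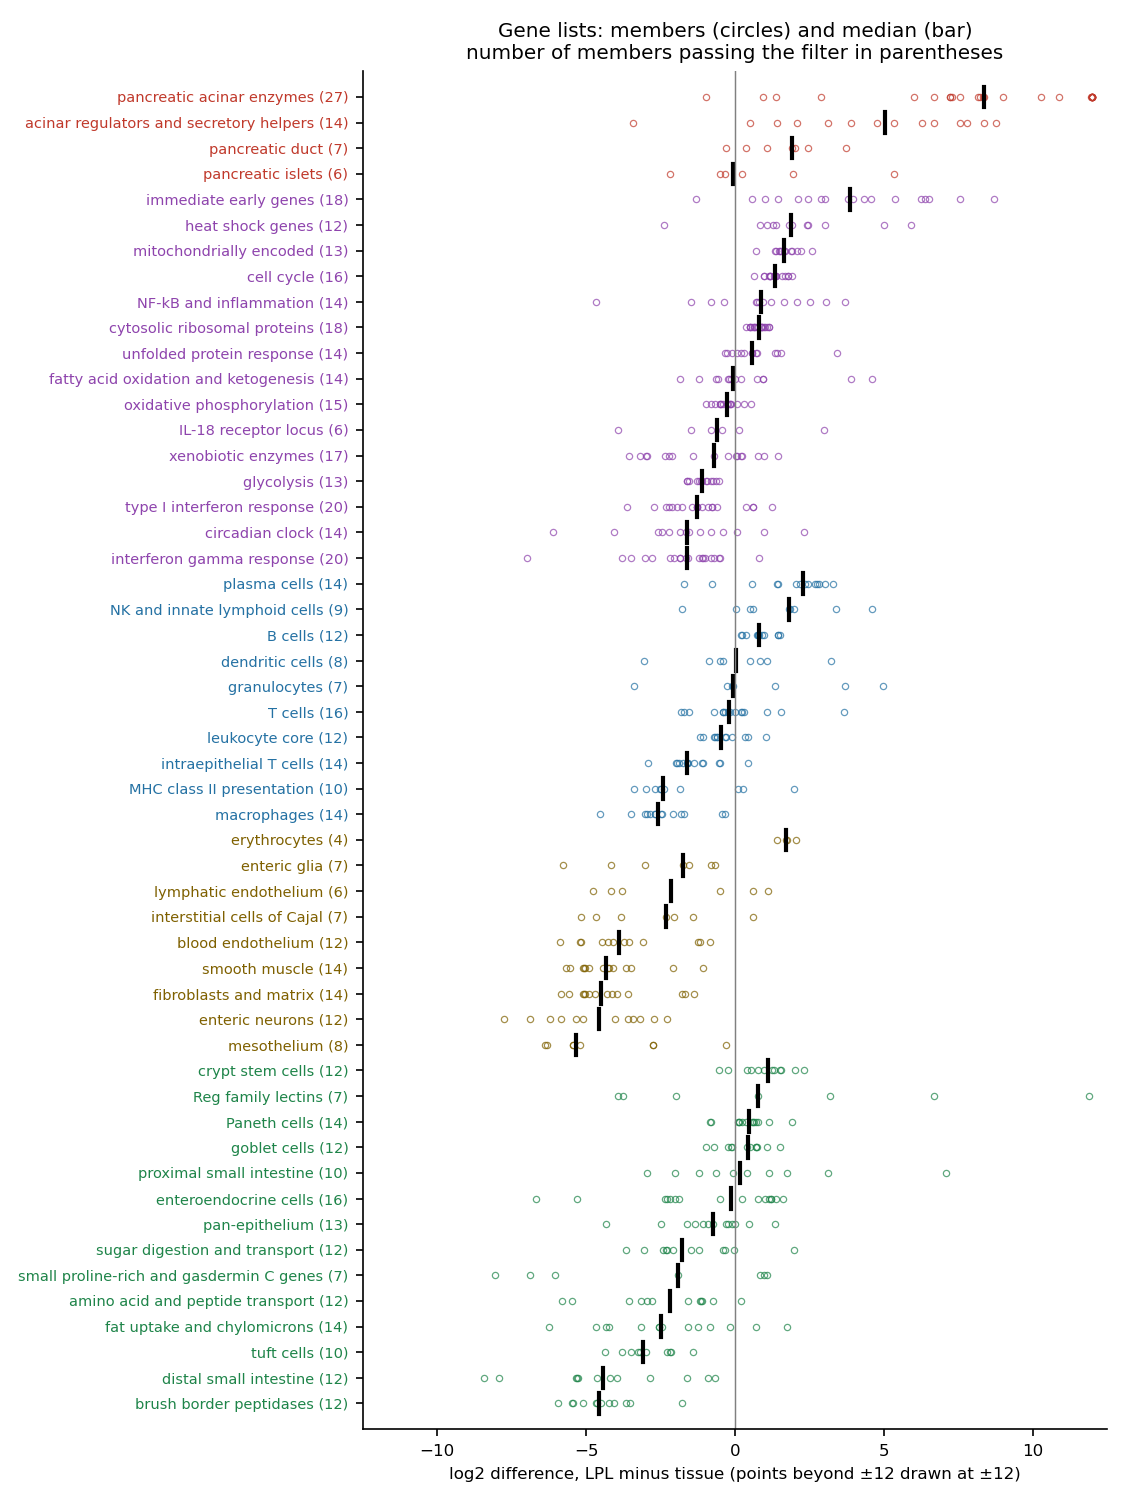
Each row is a gene list with the number of its members that passed the filter on low counts in parentheses, and each circle is 1 member at its log2 difference, LPL minus tissue, with genes of 3 reads or fewer in a preparation held at their bound or read ratio and points beyond 12 drawn at 12. Bars mark the medians: acinar, duct, immediate early and cell cycle lists lie to the right of 0, and muscle, stroma, nerve and absorptive lists to the left. The islet list lies near 0 (-0.06).

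The libraries labelled LPL were first checked against the markers of leukocytes. Ptprc, which encodes the pan-leukocyte phosphatase CD45 (chr1:138062859-138175756, GRCm38), was at 35.6, 18.8, 24.7 and 16.6 CPM in tissue (WT 1, WT 2, KO 1 and KO 2, the order used throughout) and at 168, 11.5, 7.05 and 11.9 CPM in LPL. Only LPL WT 1 exceeded the tissue libraries, and the other 3 lay below all of them. The difference of 0.34 (log2, SE 0.92) did not pass the test (adjusted p = 0.769), and without LPL WT 1 Ptprc fell by 1.16 (adjusted p = 0.0157). In bulk RNA, fewer cells of a type and less RNA per cell cannot be told apart.

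The same split ran through the other leukocyte genes. Summed over 12 pan-leukocyte genes, the level was 169.7 to 363.8 CPM in tissue, 768 CPM in LPL WT 1 and 85.8 to 92.1 CPM in the other LPL libraries. Of the 12, only Ptpn6, a phosphatase of haematopoietic cells, passed the test, and it was lower in LPL (-1.08, adjusted p = 0.0245). Without LPL WT 1, 9 of the 12 were lower (median -1.47) beside 26.3% of all genes lower and 52.5% called either way. The Ptpn6 call was lost when any of 5 single libraries was left out, with LPL KO 1 for example at an adjusted p of 0.0751. So 3 of the 4 libraries labelled LPL carried less RNA of these 12 genes as a share of all reads than any tissue library, and the label is kept here as a name of the preparation only.

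**Figure D2:**
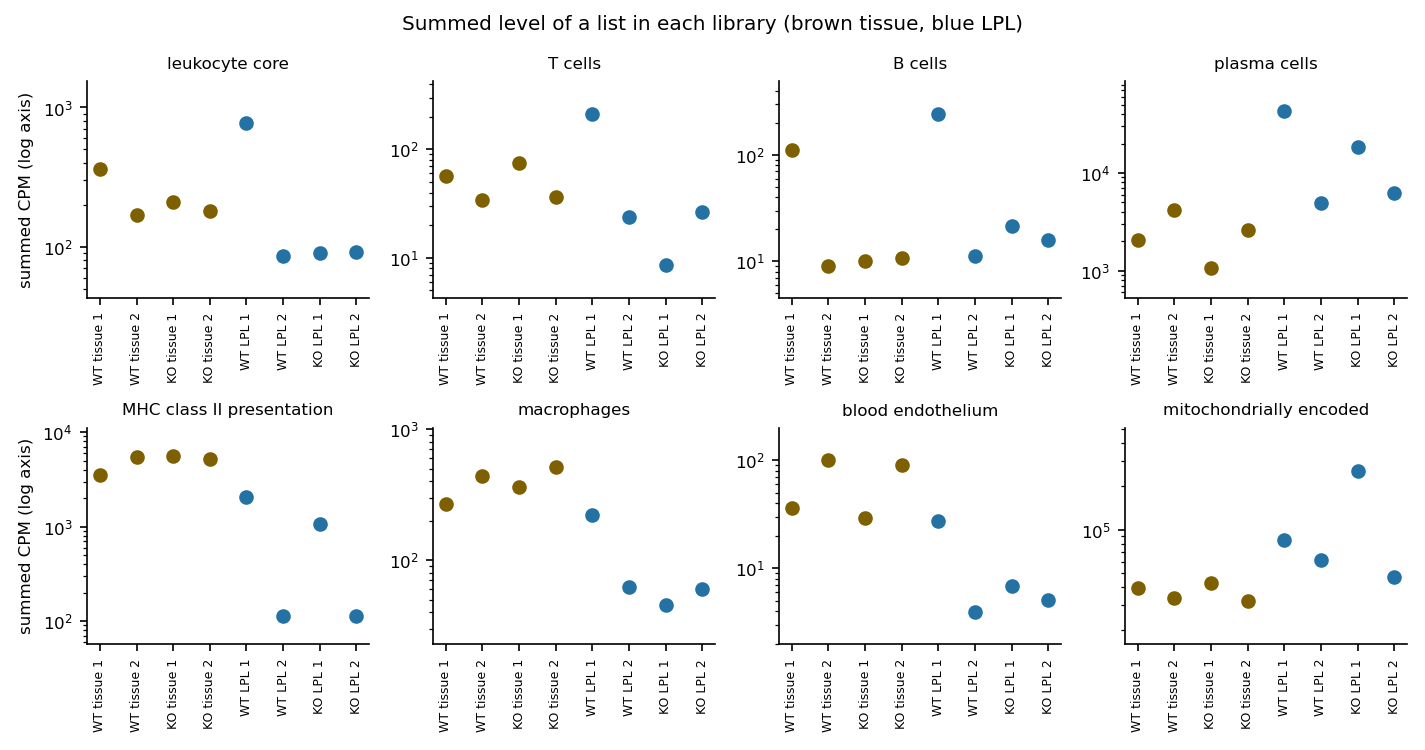
The vertical axis is the summed CPM of the members of a list in 1 library, on a log scale, with brown points for tissue and blue points for LPL. LPL WT 1 lies above the other LPL libraries for leukocyte genes (768 against 85.8 to 92.1 CPM). The plasma cell sums of the preparations do not overlap (4970 to 43150 CPM in LPL against 1054 to 4172 CPM in tissue).

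T cell genes did not separate the preparations. Cd3e, part of the CD3 signalling unit of T cells, was at 6.34, 3.19, 12.5 and 3.88 CPM in tissue and at 5.97, 1.87, 0.357 and 1.02 CPM in LPL, with overlapping groups (-1.81, SE 0.87, adjusted p = 0.111). Without LPL WT 1 it fell by 2.54 (adjusted p = 0.0179). Of 16 T cell genes, 1 was higher and none was lower, and without LPL WT 1 the counts were 1 and 4. The higher gene was Cd28, a costimulatory receptor, at 0.434 to 1.23 CPM in tissue and 3.07 to 32.1 CPM in LPL (3.66, adjusted p = 0.00445). Cd4 had no stable direction (0.38, adjusted p = 0.744, and -1.28 without LPL WT 1). None of 14 genes of intraepithelial T cells passed the test in either direction, and 11 were lower once LPL WT 1 was left out.

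B cell genes gave no call among 12 tested. Cd79a, a chain of the B cell receptor, was at 22.7, 2.31, 1.74 and 2.51 CPM in tissue and at 55.4, 3.94, 10.1 and 3.9 CPM in LPL. The highest value in both preparations was that of WT 1, and the groups overlapped. The difference of 1.45 (SE 0.89) did not pass the test (adjusted p = 0.196). Summed over the 12 genes, LPL WT 1 held 245 CPM and the other LPL libraries 11.3 to 21.4 CPM.

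Most plasma cell genes were higher in LPL, fewer of them without LPL WT 1. Igha, the constant region of IgA (chr12:113256204-113260236), was at 969, 2119, 417 and 1152 CPM in tissue and at 26990, 3019, 11430 and 3991 CPM in LPL. All LPL libraries exceeded all tissue libraries, WT 1 and KO 1 by most (3.29, SE 0.75, adjusted p = 0.00745). Of 14 plasma cell genes, 9 were higher and 1 was lower, with a median of 2.27. Tent5c, a polymerase that stabilises immunoglobulin mRNA, was at 3.88 to 7.18 CPM in tissue and at 46.9, 11.9, 26 and 13.8 CPM in LPL (2.19, adjusted p = 0.00352). Fkbp11, a folding factor of secretory cells, was also higher (1.41, adjusted p = 0.00508).

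Within LPL the plasma cell genes followed the same 2 libraries. Jchain, which joins IgA into dimers, was at 4990 and 2170 CPM in WT 1 and KO 1 and at 473 and 632 CPM in WT 2 and KO 2, the latter within the tissue range of 67.8 to 638 CPM. Its call (2.77, adjusted p = 0.0264) was lost without LPL WT 1 (1.91, adjusted p = 0.117) and without LPL KO 1, tissue KO 1 or tissue WT 1 (adjusted p = 0.0844, 0.0583 and 0.0584). Without LPL WT 1, 5 of the 14 genes were higher and 2 were lower (median 1.47), beside 26.2% and 26.3% of all genes. The lower gene in the full set was Sdc1, the surface marker CD138 that epithelium also carries, at 101 CPM or more in tissue and 74.7 to 91.7 CPM in LPL (-0.76, adjusted p = 0.00743). Reads of immunoglobulin genes can be shared between near-identical segments.

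Macrophage genes ran the other way. Mertk, a receptor for the uptake of dying cells, was at 70.5, 116, 125 and 113 CPM in tissue and at 22.1, 40, 21.1 and 36.6 CPM in LPL (-1.82, SE 0.28, adjusted p = 0.00134). The groups did not overlap, and LPL WT 1 lay within the range of the other LPL libraries. In this Mertk was unlike the list, whose sum was 222 CPM in LPL WT 1 against 45.5 to 62.2 CPM in the other LPL libraries. Of 14 macrophage genes, 5 were lower, beside 25.9% of all genes, and none was higher, with a median of -2.59. The groups did not overlap for 2 of the 14, beside 52.6% of all genes. Without LPL WT 1, 12 were lower, beside 26.3% of all genes. The count was 2 or 3 without any 1 of LPL WT 2, LPL KO 1, LPL KO 2, tissue WT 2 and tissue KO 2. Adgre1, the F4/80 antigen, differed by -1.70 (adjusted p = 0.244) and fell by 3.49 without LPL WT 1 (adjusted p = 0.0036).

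Genes for antigen presentation on MHC class II were lower in part. H2-Ab1, the beta chain of mouse I-A, was at 327, 614, 501 and 604 CPM in tissue and at 170, 30.5, 95.4 and 29.2 CPM in LPL (-2.69, SE 0.61, adjusted p = 0.00705). Every LPL library lay below every tissue library, with WT 1 and KO 1 nearest to tissue. H2-Aa, the alpha chain, fell by 3.39 (adjusted p = 0.0344), a call lost when any of 5 single libraries was left out (for example adjusted p = 0.0835 without tissue WT 2). Without both tissue libraries numbered 2, H2-Aa was not called (-3.25, adjusted p = 0.134). The listed genes H2-DMa (-2.63, adjusted p = 0.0752) and H2-DMb1 (-3.07, adjusted p = 0.108) lost their calls there too. Of 10 listed genes, 4 were lower, beside 25.9% of all genes, and 7 without LPL WT 1, beside 26.3%. The count was 2 without LPL KO 2 or tissue KO 2, where 3051 of 15171 and 3295 of 15191 genes were lower. It was 1 without tissue WT 2 or tissue KO 1, where 2983 of 14998 and 3500 of 15267 genes were lower. Dendritic cell genes gave no call among 8 tested, and Itgax, which encodes CD11c, fell by 2.21 only without LPL WT 1 (adjusted p = 0.00164).

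Innate lymphoid and granulocyte lists were thin. Areg, a growth factor of the EGF family that epithelium also makes, was at 5.37 to 12.8 CPM in tissue and at 178, 169, 202 and 180 CPM in LPL (4.61, adjusted p = 2.63e-05). The 4 LPL values of Areg lay close together, LPL WT 1 included. Of 14 listed genes 9 passed the filter, 2 were higher and 1 was lower. The other higher gene was Kit, a receptor of mast cells and pacemaker cells (0.62, adjusted p = 0.0382), whose call was lost when any of 6 single libraries was left out, for example at an adjusted p of 0.109 without LPL WT 1. Prg2, a granule protein of eosinophils, was higher (4.99, adjusted p = 0.00214) with 29.6 and 14.9 CPM in LPL WT 1 and KO 1 and 4.41 and 4.98 CPM in WT 2 and KO 2. Siglecf, a receptor of eosinophils, went the other way (-3.38, adjusted p = 0.021), a call lost without LPL KO 1, LPL KO 2 or tissue WT 1 (adjusted p = 0.0584, 0.0685 and 0.0695). Of 16 listed granulocyte genes 7 passed the filter, 2 were higher and 1 was lower (median -0.05).

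**Figure D3:**
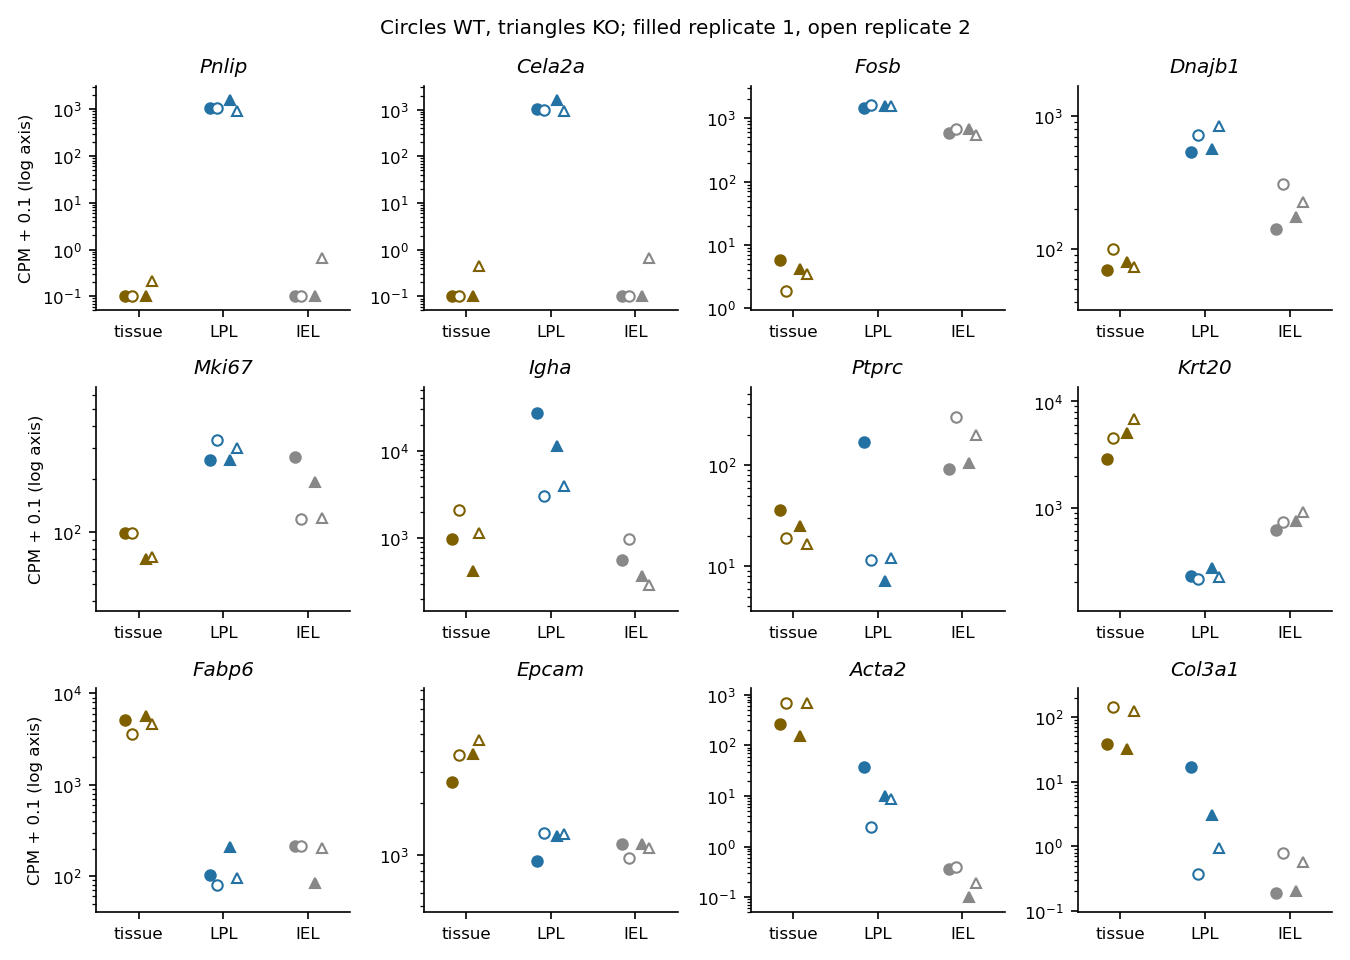
The vertical axis is CPM plus 0.1 on a log scale, in tissue, LPL and IEL libraries from left to right, with circles for WT, triangles for KO, filled symbols for replicate 1 and open symbols for replicate 2. Ptprc overlaps between tissue and LPL, Krt20, Fabp6 and Epcam are lower in LPL, Pnlip and Cela2a are near 0 in tissue and high in LPL, and Fosb is low in tissue and high in LPL.

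Epithelial genes were read in every LPL library, at lower levels than in tissue for most of them. Epcam, an adhesion molecule of all intestinal epithelium, was at 2651, 3813, 3836 and 4642 CPM in tissue and at 923, 1328, 1277 and 1326 CPM in LPL (3735 ± 820 and 1214 ± 195, SD, n = 4 each). The groups did not overlap, and the difference was -1.61 (SE 0.23, adjusted p = 0.000976). Summed over 13 pan-epithelial genes, tissue held 26760 to 34570 CPM and LPL 11460 to 15640 CPM. Of these 13, 7 were lower and 1 was higher, with a median of -0.74. The higher one was Krt18, a keratin of simple epithelia (1.35), named after its value was seen.

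Krt20, a keratin of differentiated villus cells (chr11:99428385-99438153), fell further than Epcam. It was at 2859, 4512, 5084 and 6836 CPM in tissue and at 230, 213, 273 and 226 CPM in LPL. The LPL libraries were nearly equal, and the difference was -4.32 (SE 0.28, adjusted p = 5.05e-05). Vil1, the microvillus protein villin, lay between them (-2.50, adjusted p = 0.000214). In IEL libraries Krt20 was at 621 to 913 CPM, between tissue and LPL.

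The 12 tested peptidases of the brush border, which finish protein digestion at the cell surface, were lower in LPL without exception (median -4.56 beside 0.08 for all genes). Mep1a, a subunit of meprin, was at 1011, 1648, 1503 and 1610 CPM in tissue and at 13.8, 24.2, 24.3 and 34.1 CPM in LPL (-5.93, SE 0.32, adjusted p = 2.57e-05). Every LPL library lay far below every tissue library. Xpnpep2, an aminopeptidase for peptides with proline, fell by 5.45 (adjusted p = 1.69e-05) and Mep1b, the other meprin subunit, by 4.23 (adjusted p = 4.9e-05). Ggt1, which cleaves glutathione, was at 634 to 1418 CPM in tissue, 18.2 to 30.1 CPM in LPL and 374 to 755 CPM in IEL.

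Transporters and fat handling followed, less uniformly. Slc15a1, the peptide transporter PEPT1, was at 494, 753, 1045 and 762 CPM in tissue and at 8.54, 18.3, 6.51 and 35.6 CPM in LPL (-5.47, adjusted p = 0.000257). Of 12 amino acid and peptide transporters 9 were lower and none was higher, with a median of -2.18. Slc43a2, a carrier of neutral amino acids, fell by 3.16 (adjusted p = 4.23e-05). Of 12 genes of sugar digestion and transport 6 were lower and 1 was higher (median -1.78), with Slc5a1, the sodium-glucose transporter, at -3.65 (adjusted p = 0.000217).

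Of 14 genes of fat uptake and chylomicron assembly 11 were lower and 1 was higher (median -2.50). Apoa1, an apolipoprotein of chylomicrons and HDL, was at 5363, 5832, 10410 and 5990 CPM in tissue and at 109, 88.2, 41.6 and 118 CPM in LPL (-6.25, SE 0.48, adjusted p = 8.98e-05). All LPL libraries lay far below tissue, and IEL libraries held 2687 to 4421 CPM. Fabp2, the intestinal fatty acid binding protein, fell by 4.66 (adjusted p = 8.03e-05), and Dgat2, an enzyme of triglyceride synthesis, by 2.46 (adjusted p = 0.000114).

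Genes that mark the distal small intestine were lower, and those that mark the proximal part were split. Fabp6, the ileal bile acid binding protein (chr11:43596040-43601562), was at 5059, 3605, 5728 and 4672 CPM in tissue and at 104, 80.2, 207 and 94.6 CPM in LPL (-5.33, SE 0.36, adjusted p = 5.67e-05). Slc51a and Slc51b, which together export bile acids from enterocytes, differed by -4.21 and -4.63 (adjusted p = 2.79e-05 and 1.69e-05). Of 12 distal genes 11 were lower (median -4.42), a count that stayed at 11 or 12 without LPL WT 1 and without both tissue libraries numbered 2.

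Among 10 proximal genes 2 were higher and 2 were lower. Onecut2, a transcription factor of duodenum and pancreas, was at 0.264, 0.239, 0.542 and 0.457 CPM in tissue and at 56.2, 50.8, 54.3 and 41.4 CPM in LPL (7.09, SE 0.27, adjusted p = 7.76e-06), and at 46.5 to 72 CPM in IEL. Tissue was near 0 throughout and LPL uniform. Gata4, a transcription factor of proximal intestine, was at 23.4 and 48.8 CPM in tissue WT 1 and KO 1, at 1.44 and 1.6 CPM in WT 2 and KO 2, and at 101, 207, 112 and 206 CPM in LPL (3.14, adjusted p = 0.0318). That call was lost without tissue WT 2 (adjusted p = 0.0518), LPL WT 2 (0.0644) or LPL KO 2 (0.0757). The lower genes were Heph (-2.97) and Slc40a1 (-2.01), which export iron from enterocytes.

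The secretory lineages did not move as a block. Of 12 goblet cell genes 4 were higher and 2 were lower (median 0.45), beside 27.8% and 25.9% of all genes. The lower genes were Muc2 (-0.71) and Zg16 (-0.99). Tff3 (-0.22), Clca1 (-0.1) and Fcgbp (0.41) were among those not called. Spdef, a transcription factor of goblet and Paneth cells, was at 41.1, 22.2, 31.7 and 25.4 CPM in tissue and at 57.2, 95.7, 81 and 113 CPM in LPL (1.52, adjusted p = 0.00241). Agr2, a disulphide isomerase needed for mucin, rose by 1.09 (adjusted p = 0.00591), and Atoh1, the master regulator of secretory fate, by 0.72 (adjusted p = 0.00249). Without both tissue libraries numbered 2, Agr2 (1.04, adjusted p = 0.0553) and Galnt12, another higher goblet gene (0.54, adjusted p = 0.0657), lost their calls. Of 14 Paneth cell genes 2 were higher, Nupr1 (1.92, adjusted p = 0.00207) and Habp2 (1.14, adjusted p = 0.0213), and none was lower. The shares over all genes were 27.8% and 25.9%. The other 12 were not called, among them Lyz1 (0.61), Mmp7 (0.63), Defa21 (-0.82) and Defa22 (-0.83). Habp2 was not called without both tissue libraries numbered 2 (0.74, adjusted p = 0.204). The number of Paneth calls was 1 without LPL WT 1, LPL KO 1 or tissue WT 2 and 4 without tissue WT 1, and reads of the near-identical alpha-defensins are uncertain.

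Of 10 tested tuft cell genes 9 were lower (median -3.10). Ptgs1, the cyclooxygenase COX-1, was at 14.4, 15, 15.5 and 15.4 CPM in tissue and at 4.16, 1.2, 0.357 and 2.17 CPM in LPL (-2.99, adjusted p = 0.00349). Dclk1, a kinase that marks tuft cells, fell by 4.38 (adjusted p = 0.00108) and Trpm5, their taste-signalling channel, by 3.20 (adjusted p = 0.00749). Without tissue KO 1, 5 of the 10 passed.

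Of 16 enteroendocrine genes 6 were lower and 2 were higher, beside 25.9% and 27.8% of all genes. The median was -0.13, with 8 genes above 0 and 8 below. Nts, the hormone neurotensin of distal N cells, was at 52.8, 84.3, 65.3 and 76.9 CPM in tissue and at 0.832, 0.468, 1.07 and 0.383 CPM in LPL (-6.69, SE 0.34, adjusted p = 1.87e-05). Pyy, also a distal hormone, fell by 5.30 (adjusted p = 0.000144). Sct (secretin) and Sst (somatostatin) differed by -2.30 and -2.19 (adjusted p = 0.000113 and 0.000341). The 2 higher genes were Cck (1.62) and Neurog3 (1.37).

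Cell cycle genes and most crypt genes were higher in LPL. Mki67, the proliferation antigen Ki-67, was at 98.3, 97.7, 70.1 and 72.1 CPM in tissue and at 256, 334, 255 and 300 CPM in LPL (1.78, SE 0.16, adjusted p = 0.000131). The groups did not overlap. Of 16 cell cycle genes 15 were higher and none was lower (median 1.33), among them Bub1 of the spindle checkpoint (1.91), Top2a, a topoisomerase (1.38), and Pcna, the replication clamp (1.33). With the WT libraries alone 1 of the 16 passed, beside 1.95% of all genes.

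Olfm4, a marker of crypt base columnar stem cells, was at 151, 89.4, 82.2 and 38.5 CPM in tissue and at 359, 421, 450 and 499 CPM in LPL (2.33, SE 0.37, adjusted p = 0.00147). Of 12 crypt stem cell genes 8 were higher and none was lower (median 1.12), and 6 were higher without both tissue libraries numbered 2. The 4 not called were Lgr5 (0.39), Ascl2 (0.53), Axin2 (-0.55) and Tnfrsf19 (-0.22). Sox9, which marks crypts and also pancreatic ducts, rose by 2.02 (adjusted p = 0.00173), and Ephb2, a receptor that sorts crypt cells, by 1.30 (adjusted p = 0.00243). Slc12a2, a chloride importer of crypt cells, rose by 1.52 (adjusted p = 0.000867).

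Genes of the gut wall were lower in LPL. Acta2, smooth muscle actin, was at 260, 671, 153 and 676 CPM in tissue and at 36.8, 2.34, 9.99 and 8.43 CPM in LPL (-5.03, SE 0.91, adjusted p = 0.00265). Tissue libraries numbered 2 were highest, and all tissue values exceeded all LPL values. The 14 smooth muscle genes were lower without exception (median -4.33), 12 of them without both tissue libraries numbered 2. Des, the muscle intermediate filament desmin, and Myh11, smooth muscle myosin, differed by -5.07 and -4.24 (adjusted p = 0.00156 and 0.00383). The IEL libraries held still less, with Acta2 at 0 to 0.3 CPM.

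Fibroblast and matrix genes, which belong to the lamina propria itself, were lower as well. Col3a1, a fibrillar collagen, was at 37.5, 141, 32.2 and 122 CPM in tissue and at 16.6, 0.267, 2.94 and 0.83 CPM in LPL (-4.31, SE 1.1, adjusted p = 0.0127). LPL WT 1 was the highest of its group and still below tissue. Of 14 tested genes 13 were lower (median -4.51), and 9 without both tissue libraries numbered 2, when Col3a1 (-3.29, adjusted p = 0.0838) and Col1a1 (-2.92, adjusted p = 0.0766) lost their calls. Pdgfra, the receptor of mesenchymal cells, fell by 5.05 (adjusted p = 0.00152).

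Blood vessel genes were lower in 9 of 12 cases (median -3.91), and in 4 without both tissue libraries numbered 2. Plvap, a protein of fenestrated capillaries, was at 10.7, 25, 7.49 and 15.8 CPM in tissue and at 1.44, 0.267, 0.892 and 0.128 CPM in LPL (-4.47, SE 0.69, adjusted p = 0.00134). Pecam1, the endothelial CD31 that leukocytes also carry, was at 18.3 CPM in LPL WT 1 and 0.668 to 1.34 CPM in the other LPL libraries, and its call (-2.94, adjusted p = 0.00202) appeared only without LPL WT 1. Lymphatic genes were lower in 3 of 6 cases, and in 1 without both tissue libraries numbered 2.

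Neuronal genes were lower throughout, 12 of 12 tested (median -4.56), and 5 of 10 tested without both tissue libraries numbered 2. Uchl1, a neuronal ubiquitin hydrolase, was at 3.26, 15.3, 3.69 and 12.1 CPM in tissue and at 0.227, 0.134, 0.0892 and 0 CPM in LPL (-6.23, SE 0.85, adjusted p = 0.000817). Vip, the neuropeptide of secretomotor neurons, had no read in LPL against 1.41, 23, 1.63 and 20.6 CPM in tissue, at least 219-fold lower against a floor of 3 reads over the LPL group (0.0545 CPM). Tissue libraries numbered 2 held most of it. Glial genes were lower in 4 of 7 cases (1 of 4 tested without those 2 libraries).

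Of 8 mesothelial genes 6 were lower and none was higher, with a median of -5.23 (-5.33 with genes near 0 held at their bound). Upk3b, a uroplakin of the mesothelium, was at 2.11, 40.1, 1.3 and 31.4 CPM in tissue and 0.2 to 0.756 CPM in LPL (-5.44, adjusted p = 0.00758). Without both tissue libraries numbered 2 it was at -2.07 (adjusted p = 0.0552), and 1 of 4 tested mesothelial genes passed. Among the largest falls were also genes of adipocytes. Adipoq, the adipocyte hormone adiponectin, was at 2.03, 28.5, 1.63 and 16.2 CPM in tissue with 1 read in LPL against 537, a ratio of 706.2 (95% interval 126.2 to 27950, counting error only). Car3, a carbonic anhydrase abundant in fat, was at least 307-fold lower.

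The largest falls over all genes were epithelial in part. Clca4a, a member of the chloride channel accessory family, was at 458, 2983, 1364 and 3879 CPM in tissue and at 0.302, 0.267, 0.178 and 0 CPM in LPL (-13.42, SE 1.1, adjusted p = 0.0001). Pmp22, a membrane protein of cell junctions and myelin, was at 816, 1829, 1814 and 1737 CPM in tissue and at 1.06, 0.935, 0.535 and 0.383 CPM in LPL (-11.04, adjusted p = 1.62e-05). Tmigd1, an adhesion molecule of the brush border, fell by 10.52 (adjusted p = 8.13e-05), and Saa1, an acute phase protein, by 11.48. In each of these genes the LPL libraries were near 0 and every tissue library was high. Slc6a14, an amino acid transporter, spread from 5.63 to 667 CPM within tissue (-10.01, adjusted p = 0.00171).

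Genes of the exocrine pancreas made up the 15 largest rises among the genes named by rule. Pnlip, pancreatic lipase (gene 69060, chr19:58670365-58681799), was at 0, 0, 0 and 0.114 CPM in tissue and at 1066, 1058, 1573 and 902 CPM in LPL. That is 1 read in tissue against 61695 in LPL, a ratio of 46910 (95% interval 8419 to 1853000, counting error only). Cela2a, an elastase (chr4:141814954-141826005), was at 0, 0, 0 and 0.343 CPM in tissue and at 1053, 997, 1609 and 936 CPM in LPL, a ratio of 15600 (5338 to 75650). All 4 LPL libraries carried these transcripts at similar levels, KO 1 highest, and tissue carried almost none. The same held for Cel, the bile salt-activated lipase, at 710, 691, 1040 and 631 CPM in LPL (ratio 31390, 5633 to 1240000).

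Acinar cells, which make these enzymes, express them under PTF1, a factor that pairs the pancreas-specific protein PTF1A with an E-box binding partner and RBPJ or RBPJL. Since these genes were read in LPL and next to nothing in tissue, the 250 bases upstream of 3 of them are shown, from RefSeq on GRCm38.p6, 5′ to 3′ on the gene's own strand. Capitals mark CACCTG, an E-box form, and TTTCCC, the core of the RBPJ site, each on either strand. All 3 stretches hold both motifs, which 5 of the 22 acinar enzyme promoters with an entry do. The 3 stretches lie at chr6:41521526-41521775 (plus strand, Prss2, anionic trypsin), chr4:141826006-141826255 (minus strand, Cela2a) and chr2:28563404-28563653 (minus strand, Cel).
Prss2: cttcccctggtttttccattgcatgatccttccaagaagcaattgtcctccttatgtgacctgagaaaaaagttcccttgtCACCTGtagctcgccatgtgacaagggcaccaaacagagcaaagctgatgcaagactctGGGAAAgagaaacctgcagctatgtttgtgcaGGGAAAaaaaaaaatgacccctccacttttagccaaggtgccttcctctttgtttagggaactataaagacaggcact
Cela2a: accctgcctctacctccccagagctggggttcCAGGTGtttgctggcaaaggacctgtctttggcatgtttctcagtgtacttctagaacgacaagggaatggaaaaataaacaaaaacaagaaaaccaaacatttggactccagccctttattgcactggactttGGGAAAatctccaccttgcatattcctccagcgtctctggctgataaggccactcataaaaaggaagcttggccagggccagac
Cel: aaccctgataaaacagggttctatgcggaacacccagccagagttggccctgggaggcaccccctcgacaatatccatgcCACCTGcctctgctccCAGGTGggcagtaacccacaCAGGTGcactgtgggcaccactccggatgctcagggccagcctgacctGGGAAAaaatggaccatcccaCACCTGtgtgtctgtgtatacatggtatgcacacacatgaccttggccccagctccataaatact

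Of 28 acinar enzyme genes 22 had a promoter entry. CACCTG stood in 13 of these (59.1%), beside 15.9% of the 11053 tested genes with an entry and 17.1% of all 27025 entries. TTTCCC stood in 7 (31.8%, beside 23.3% and 21.9%), and both stood in 5 (22.7%, beside 3.47% and 3.63%), the 3 shown and Cela1 and Prss1. The motifs do not overlap each other. These are matches of letters and show no binding.

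The proteases followed the lipases. Prss2 had no read in tissue and was at 667, 626, 1670 and 550 CPM in LPL, at least 11540-fold higher against a floor of 3 reads over the tissue group (0.0716 CPM). Ctrb1, chymotrypsinogen, also had none in tissue and was at 623, 572, 867 and 483 CPM in LPL, at least 8639-fold higher. Cpa1, carboxypeptidase A1, had 1 read in tissue and 471 to 795 CPM in LPL (ratio 23480, 4213 to 927300). Try4 and Try5 are trypsinogens whose sequence is close to that of Prss2, so the division of reads among them is uncertain.

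Of the 28 acinar enzyme genes 27 passed the filter, which most could do only through LPL, so the following is a description. Higher in LPL were 25, and 1 was lower. The fitted median was 9.79, and 8.37 with the 16 genes of 3 or fewer tissue reads held at their bound or ratio. The lower gene was Zg16, a lectin of zymogen granules and also of goblet cells (-0.99, adjusted p = 0.021), named after its value was seen. The list took 1.14 to 1.78% of LPL reads and 0.257 to 0.385% of tissue reads, the latter mainly Zg16. As many genes, 25, were higher without LPL WT 1 and without both tissue libraries numbered 2.

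The regulators of acinar cells were read at low levels. Ptf1a itself had no read in tissue and was at 0.907, 1.2, 1.34 and 0.894 CPM in LPL, at least 14.95-fold higher. Cuzd1, a zymogen granule membrane protein, was at least 329-fold higher, and Serpini2, a pancreatic serpin, at least 223-fold. Reg1, a lectin of acinar cells, was at 2.82, 2.71, 3.91 and 4.8 CPM in tissue and at 325, 253, 667 and 243 CPM in LPL (6.70, SE 0.38, adjusted p = 2.79e-05). Of 14 regulators and secretory helpers 12 were higher and 1 was lower (fitted median 6.92, and 5.05 with 8 genes at their bound or ratio). Those 8 passed the filter only through LPL, so the count is a description.

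The lower one was Spink1, the trypsin inhibitor that intestinal epithelium also makes, at 378, 453, 447 and 639 CPM in tissue and 37.1, 28.3, 88.1 and 30.4 CPM in LPL (-3.43, adjusted p = 0.000245). Duct and islet genes were thinner. Of 7 tested duct genes 4 were higher, Sox9, Cftr, Spp1 and Muc1, and 2 without both tissue libraries numbered 2. Muc1, a mucin of ducts, was at 0 to 0.343 CPM in tissue and 1.02 to 3.48 CPM in LPL (3.73, adjusted p = 0.00578). Of 6 tested islet genes 1 was higher, Pdx1, and 1 was lower, Sst (-2.19), with a median of -0.06. Pdx1, a transcription factor of pancreas and duodenum, was at 0.0797 to 0.326 CPM in tissue and 3.39 to 8.41 CPM in LPL (5.35, adjusted p = 0.000258). Ins2, insulin, had reads only in LPL WT 1 (1.51 CPM) and WT 2 (0.2 CPM).

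The Reg lectins split by their usual source. Reg2, a pancreatic member, was at 101, 31.2, 276 and 7.09 CPM in LPL with 1 read in tissue (ratio 3806, 682.7 to 150300). Reg3b, an antimicrobial lectin of inflamed enterocytes, was at 15590, 23920, 16160 and 63820 CPM in tissue and at 1932, 254, 6032 and 125 CPM in LPL (-3.94, SE 1.2, adjusted p = 0.0217). The groups did not overlap, but without tissue KO 2 the call was lost (-3.54, adjusted p = 0.0575). Reg3b was not called without both tissue libraries numbered 2 either (-3.26, adjusted p = 0.113). Of 7 Reg genes 3 were higher and 3 were lower, 1 of them without tissue KO 2.

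Immediate early genes were higher in LPL, with Klf4 as the exception. These genes, which encode short-lived transcription factors and feedback regulators, are switched on within minutes by stimulation or handling of cells. Fosb, a partner of JUN in the AP-1 factor (chr7:19302696-19310118), was at 5.72, 1.75, 4.01 and 3.43 CPM in tissue and at 1435, 1618, 1583 and 1589 CPM in LPL (3.73 ± 1.64 and 1556 ± 82.4, SD, n = 4 each). The LPL values lay close together, and the difference was 8.70 (SE 0.42, adjusted p = 1.67e-05). IEL libraries held 540 to 670 CPM. Nr4a1, an orphan nuclear receptor (chr15:101253902-101274795), was at 2.2, 1.91, 1.84 and 2.74 CPM in tissue and at 530, 311, 381 and 423 CPM in LPL (7.56, SE 0.27, adjusted p = 7.1e-06).

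For each of these 2 genes the 250 bases upstream of its first listed RefSeq start are shown, because both genes were low in every tissue library and high in every LPL library. Capitals mark TGACG, the core that CREB and ATF proteins bind, on either strand. The stretches lie at chr7:19310046-19310295 (minus strand, Fosb) and chr15:101266596-101266845 (plus strand, Nr4a1), from RefSeq on GRCm38.p6. The Nr4a1 stretch lies wholly, and the Fosb stretch in part, within the gene span given above. TGACG stood in 10 of the 16 immediate early genes with an entry (62.5%), beside 26.1% of tested genes and 17.9% of all entries. A CArG box, the site of serum response factor, stood in 1 (6.25%, beside 1.18% and 1.4%).
Fosb: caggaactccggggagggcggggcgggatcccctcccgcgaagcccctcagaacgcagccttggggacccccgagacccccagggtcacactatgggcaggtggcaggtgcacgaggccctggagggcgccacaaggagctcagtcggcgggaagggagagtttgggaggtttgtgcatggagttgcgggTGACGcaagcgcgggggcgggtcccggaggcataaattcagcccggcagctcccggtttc
Nr4a1: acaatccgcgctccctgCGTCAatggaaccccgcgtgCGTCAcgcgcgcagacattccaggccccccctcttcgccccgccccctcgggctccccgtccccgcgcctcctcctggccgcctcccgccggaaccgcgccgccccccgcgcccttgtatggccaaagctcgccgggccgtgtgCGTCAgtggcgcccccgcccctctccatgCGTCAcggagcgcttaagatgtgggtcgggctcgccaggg

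Of the 18 immediate early genes 17 were higher and 1 was lower (median 3.88). Egr2, a zinc finger factor, was at 0.616, 0.797, 1.08 and 0.914 CPM in tissue and at 89.4, 78.7, 80 and 64.9 CPM in LPL (6.52, SE 0.22, adjusted p = 7.1e-06). Ier2 was at 49.5 to 54.8 CPM in tissue and at 999, 1005, 1149 and 1012 CPM in LPL (4.32, adjusted p = 7.76e-06). None of the 18 overlapped between the groups. The lower gene was Klf4, which marks differentiated villus cells as well (-1.30, adjusted p = 0.00105), named after its value was seen. Against IEL, 12 of the 18 were higher in LPL and none was lower, beside 7.92% and 11.5% of 14716 genes in the fit of 12 libraries.

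Heat shock genes were higher as well. Dnajb1, the HSP40 cochaperone, was at 69.5, 100, 80.7 and 73.2 CPM in tissue and at 536, 718, 565 and 840 CPM in LPL (3.04, SE 0.22, adjusted p = 7.65e-05). Hsp90aa1, the inducible HSP90, was at 117 to 221 CPM in tissue and 872 to 992 CPM in LPL (2.42, adjusted p = 0.000157). Of 12 heat shock genes 11 were higher and 1 was lower (median 1.87). Hsph1, which recharges HSP70, rose by 2.45 and Bag3, another HSP70 partner, by 1.37 (adjusted p = 0.000116 and 0.000275). The lower one was Hspb1, a small heat shock protein of muscle and epithelium (-2.40, adjusted p = 0.0094), named after its value was seen.

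Among 14 genes of the unfolded protein response 6 were higher and none was lower (median 0.57). Ddit3, the stress factor CHOP, was at 11.8, 14.2, 17.9 and 13.5 CPM in tissue and at 218, 114, 172 and 114 CPM in LPL (3.43, SE 0.27, adjusted p = 9.49e-05). WT 1 and KO 1 were highest, and all LPL libraries exceeded tissue. Atf4, which acts upstream of it, rose by 1.55 (adjusted p = 0.000118), and Hspa5, the chaperone BiP, by 1.42 (adjusted p = 0.00166). How far the immediate early, heat shock and stress genes moved with the extraction method cannot be told apart from the preparation.

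Interferon gamma response genes were lower in part, and type I interferon genes were called lower at near the share of all genes. Ido1, which degrades tryptophan and is induced by interferon gamma, was at 53.3, 126, 81.7 and 79.5 CPM in tissue and at 1.36, 0.2, 0.892 and 0.319 CPM in LPL (-6.98, SE 0.55, adjusted p = 9.49e-05). Of 20 interferon gamma response genes 11 were lower, beside 25.9% of all genes, and none was higher (median -1.60). The count was 6 without tissue WT 2. It was 4 without both tissue libraries numbered 2, beside 21.6% of all genes. Irgm2, an immunity-related GTPase, and Socs1, a brake on the receptor, differed by -2.78 and -2.18 (adjusted p = 0.00434 and 0.00221). Of 20 type I interferon genes 6 were lower (median -1.26), near the 25.9% of all genes. The count was 13 without LPL WT 2, 2 without LPL KO 1 or LPL KO 2, and 3 without tissue WT 2. Over all genes, 3421 of 15185 were lower without LPL WT 2, and 2983 of 14998 without tissue WT 2. Without LPL KO 1 and LPL KO 2, 3107 of 15173 and 3051 of 15171 were lower. Ifit1, an antiviral RNA sensor, was at 17 CPM in LPL WT 2 and at 1.09 to 3.48 CPM in the other LPL libraries.

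Inflammatory genes differed among themselves. Nos2, the inducible nitric oxide synthase, was at 293, 704, 339 and 1537 CPM in tissue and at 41.3, 18.8, 40.4 and 7.79 CPM in LPL (-4.67, SE 0.77, adjusted p = 0.00183). Relb, a subunit of NF-kB, fell by 1.47 (adjusted p = 0.000719). Il1b, interleukin-1 beta, was at 60.5 CPM in LPL WT 1 and at 2.3 to 5.89 CPM in the other LPL libraries, against 0.478 to 2.17 CPM in tissue (3.68, adjusted p = 0.0448). Its call was lost when any of 4 single libraries was left out, with an adjusted p of 0.0833 without LPL KO 1. Without both tissue libraries numbered 2 the call was lost too (4.42, adjusted p = 0.0865). Il1rl1, the receptor of IL-33, was at 5.98 to 14.4 CPM in tissue and 0.0639 to 3.71 CPM in LPL (-3.93, adjusted p = 0.0191), and was not called without LPL KO 1 (0.0621) or LPL KO 2 (0.0561).

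Clock genes differed in both directions. Dbp, an output factor of the circadian clock, was at 33.9, 55.6, 53.4 and 48 CPM in tissue and at 1.59, 0.334, 0.357 and 0.511 CPM in LPL (-6.11, SE 0.48, adjusted p = 9.47e-05). Tef, its relative, fell by 4.06 (adjusted p = 5.87e-05), and Cry2, a repressor of the clock, by 2.23 (adjusted p = 0.000233). Arntl, which encodes the activator BMAL1, was at 9.77, 11.7, 8.03 and 9.14 CPM in tissue and at 40.5, 53.1, 49.8 and 48.7 CPM in LPL (2.32, SE 0.16, adjusted p = 6.39e-05). Of 14 clock genes 10 were lower and 2 were higher, without overlap for 12. The hours of sampling were not given in the sources used here.

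Metabolic lists moved unevenly. Of 13 glycolytic genes 12 were lower and none was higher (median -1.10), with Pfkp, a phosphofructokinase, at 430 to 640 CPM in tissue and 146 to 184 CPM in LPL (-1.61, adjusted p = 0.000221). Among 14 genes of fatty acid oxidation 4 were higher and 3 were lower. Pdk4, a brake on pyruvate use, was at 1.58 to 5.25 CPM in tissue and at 46.3, 90.6, 34.1 and 114 CPM in LPL (4.60, adjusted p = 0.000417), whereas Acadl, an acyl-CoA dehydrogenase of mitochondria, fell by 1.22 (adjusted p = 0.00678). Of 17 xenobiotic enzymes 7 were lower and 1 was higher, with Cyp4f14, a fatty acid hydroxylase, at -3.18 (adjusted p = 0.000118).

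Ribosomal protein genes were higher in 15 of 18 cases by small amounts (median 0.81), and in 5 without both tissue libraries numbered 2. Rpsa, of the small subunit, rose by 1.14 (adjusted p = 0.00314). Transcripts of the mitochondrial genome were higher in 8 of 13 cases. The count was 5 without LPL WT 1 or LPL KO 1, 3 without tissue WT 2, 2 without tissue KO 2, 1 without tissue KO 1 and 12 without LPL KO 2, and none passed without both tissue libraries numbered 2. ND2, a subunit of complex I, was at 2192, 1360, 2343 and 1181 CPM in tissue and at 5362, 3643, 15900 and 2949 CPM in LPL (1.88, adjusted p = 0.0229). LPL KO 1 stood far above the rest, with 25% of its reads in mitochondrial genes against 5.89 to 10.6% in the other LPL libraries and 2.77 to 4.24% in tissue. Nuclear genes of oxidative phosphorylation were lower in 4 of 15 cases, near the 25.9% of all genes, and in 1 without tissue KO 1 and 2 without LPL WT 1, LPL KO 1, LPL KO 2 or tissue WT 2.

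The difference between preparations was then compared between genotypes. No gene passed the test of the interaction of genotype and preparation with edgeR, where 177 had an unadjusted p under 0.05 (smallest adjusted p 1.0), or with DESeq2, where 259 did (smallest adjusted p 0.705). On simulated counts of 14112 genes, the test of preparation recovered 23.9% of 2-fold and 79.1% of 4-fold changes, 67 genes each. Far fewer genes were changed there than were called in the data. No simulation of the interaction was run, so these rates do not apply to it. The 5 genes with the smallest p were Trim30a, Slfn2, Rsad2, Tnip1 and Mcpt2. Trim30a, an interferon-induced E3 ligase gene, was at 13.6 and 25.2 CPM in LPL of WT mice and 2.59 and 2.43 CPM in LPL of KO mice, against 4.58 to 20.3 CPM in tissue. Its difference between preparations was 1.58 in WT and -2.39 in KO, an interaction of -4.01 (SE 0.949, unadjusted p = 0.00387).

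Fitted alone, the WT libraries gave 268 higher and 576 lower genes of 13765 (1.95% and 4.18%, 6.13% together), and the KO libraries 2473 and 2732 of 13290 (18.6% and 20.6%, 39.2% together). Called in both were 826 genes, 97.9% of the WT calls and 15.9% of the KO calls, and each of them had the same sign. Across 13136 genes in both fits, the 2 sets of log2 differences correlated at r = 0.908, a correlation over genes, which are not independent replicates. Ptprc, Trim30a, Slfn2 and Rsad2 were among the named genes whose sign differed between the genotypes, at -1.16 for Ptprc in KO (adjusted p = 0.0508), where LPL WT 1 is not part of the fit.

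**Figure D4:**
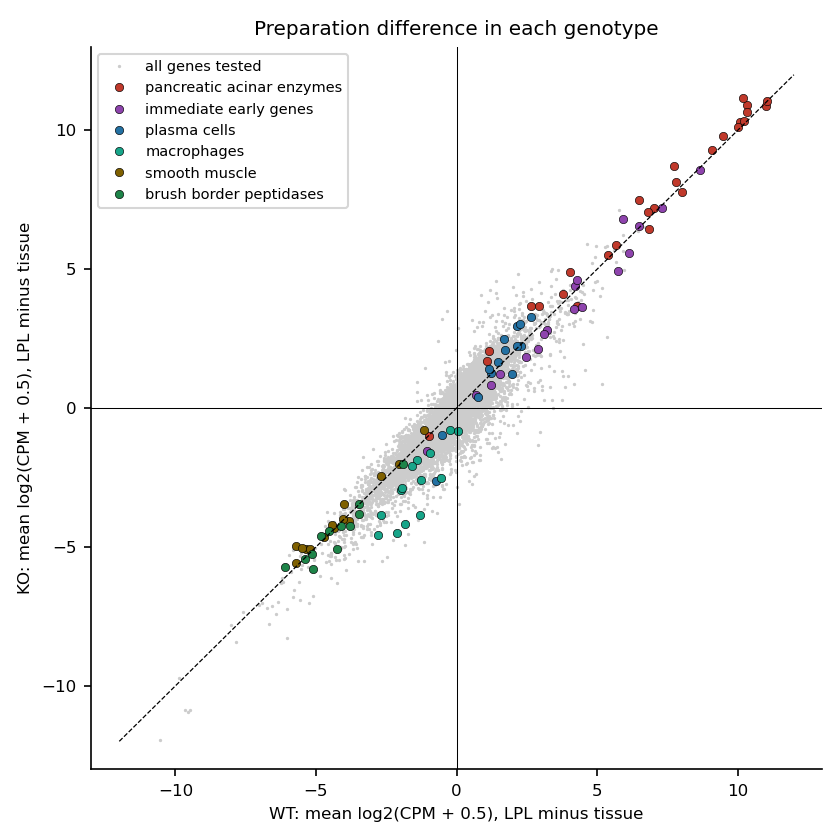
Each point is 1 gene, with its mean log2(CPM + 0.5) difference between LPL and tissue in WT on the horizontal axis and in KO on the vertical axis, and the dashed line marks equal values. Of 6 coloured gene lists, acinar enzymes lie at the upper right and smooth muscle at the lower left. The r of 0.908 over 13136 genes belongs to separate fits of each genotype, not to the values drawn here.

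Beside the IEL libraries, LPL differed less. In a fit of 12 libraries, 1165 of 14716 genes were higher in LPL than in IEL (7.92%) and 1691 were lower (11.5%), 2856 in all (19.4%). The acinar enzymes were higher in LPL for 25 genes, the plasma cell genes for 10 of 14 (median 2.76) and the smooth muscle genes for 9 (median 6.28). The 14 genes of intraepithelial T cells were lower in LPL without exception (median -5.01), as were the 12 tested brush border peptidases (median -2.69). Both comparisons share the LPL libraries.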

How the data were processed

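Each deposited gene file gives the reads of every Entrez gene as a raw count. Its header names HISAT2 as the source of the aligned reads, and the authors counted them with featureCounts, per the file headers. TopHat, DESeq and mm10 stand in the submitters' processing notes, which do not mention HISAT2. The strand setting of the counting was not given in the sources used here. Symbols were found for 25275 of 27179 IDs, with 99.17% of reads, and coordinates are those of GRCm38.

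Groups came from the sample titles. The 8 libraries were fitted with edgeR 4.0.16 (R 4.3.3) by quasi-likelihood with TMM factors, filterByExpr, genotype and preparation, and Benjamini-Hochberg adjustment over all tested genes at 0.05. CPM are TMM-scaled. The fit was tested on simulated counts. Genes with at most 3 reads in a preparation have a bound or a read ratio with an exact 95% interval instead of a fitted value. The interaction was a contrast of 4 group means, with DESeq2 1.42.0 as an alternative tool. Promoters are the first RefSeq entry of a gene.

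The members and the 52 gene lists were chosen with earlier results of these data known. The rule for naming took up to 15 rises and 15 falls with a mean of at least 5 CPM, no overlap between preparations and an adjusted p under 0.05, the defining markers, up to 4 members of each list and 5 genes of the interaction. Predicted genes and receptor segments were left out of naming, and some genes that the rule chose are not reported here.

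Replicate numbers were checked as a pairing of tissue with LPL. After removal of group means, same-numbered libraries correlated at -0.212 in WT and -0.309 in KO. With 2 libraries per group the deviations mirror each other. The crossed pairs therefore correlate at the same size with a positive sign, and these values alone cannot settle a pairing. The tissue libraries numbered 2 are male by Ddx3y and Xist and the LPL libraries female, so number 2 does not mark a shared animal. For number 1 the labels do not say, and the numbers were not used as a pairing. Replicates of a group differed from each other by far more than counting noise. Tissue, LPL and IEL files alone were used, and other samples of the series were not analysed here.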

Additional observations from a re-analysis of the deposited data

Results flagged for a closer look

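A library was set apart where its gap to the nearest of the other 3 of its group exceeded Dixon's 95% critical value for the gap as a share of the group's range, on the summed CPM of each list. Of 104 such groups 12 were set apart, 9 of them by LPL WT 1, where chance alone gives about 1 in 20. The groups are not independent, since the same libraries enter each.

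LPL WT 1 was highest for immune and vascular lists. Its pan-leukocyte genes summed to 768 CPM, against 85.8 to 92.1 CPM in the other LPL libraries. T cell genes summed to 211 CPM against 8.56 to 26.7 CPM, and genes of intraepithelial T cells to 173 CPM against 9.01 to 24.8 CPM. B cell genes reached 245 CPM against 11.3 to 21.4 CPM. Macrophage genes stood at 222 CPM against 45.5 to 62.2 CPM, and granulocyte genes at 126 CPM against 12.1 to 24.3 CPM. For fibroblast and matrix genes it held 104 CPM against 43.9 to 44.8 CPM, and for blood endothelium 27.7 CPM against 3.94 to 6.87 CPM. It was lowest for the mesothelial list, at 1760 CPM against 2570 to 2710 CPM, a sum that is nearly all Krt19, a keratin that epithelium carries (1756 CPM against 2566 to 2712 CPM). Msln, Upk3b and Lrrn4, more specific to mesothelium, were at 0.302, 0.756 and 0.378 CPM in LPL WT 1, the highest of the LPL libraries. What sets this library apart was not tested.

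Tissue WT 1 was set apart for B cell genes, at 111 CPM against 9.09 to 10.7 CPM in the other tissue libraries. Tissue KO 2 was set apart for the Reg lectins, at 107000 CPM against 24000 to 34000 CPM. LPL KO 1 held 1090 CPM of the acinar regulators and secretory helpers against 620 to 645 CPM in the other LPL libraries, with Reg1 at 667 CPM in LPL KO 1 against 243 to 325 CPM taking up most of the gap.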

How the results depend on the processing

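Leaving out single libraries gave 3193 to 3913 higher and 2983 to 3932 lower genes. The counts differed by more than 1.5 times with WT libraries alone (268 higher, 576 lower), KO libraries alone (2473 higher), without both tissue libraries numbered 2 (2369 higher) and with the test against a fold of 2 (891 higher, 1454 lower). Of the calls, 51.8% were higher, 47.3% with DESeq2 size factors, 42.8% without both tissue libraries numbered 2, 38.0% against a fold of 2 and 31.8% in WT alone. With the replicate number as a block, 3389 genes were higher and 3241 lower, and 0 passed for the interaction. The crossed pairing, added after seeing the data, gave 4382 and 4073.

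Of 214 tested named genes 120 lost their call under at least 1 alternative, 112 of them in WT alone, and 8 changed sign, with the cause not tested. The median of the small proline-rich and gasdermin C genes turned to 0.73 under the stricter filter, which left 5 genes. In WT alone the values were 0.01 for Adgre1, 0.7 for Itgax, 1.94 for Mcpt2, 0.26 for Rsad2, 0.57 for Slfn2 and 1.58 for Trim30a. In KO alone they were -0.62 for Cd4 and -1.16 for Ptprc. Without both tissue libraries numbered 2 they were -0.31 for Cd4, -0.29 for Ptprc and 0.23 for Trim30a. Under the replicate block Cd4 was at -0.21 and Ptprc at -0.24, and under the crossed block at -0.25 and -0.38. Without the genotype covariate Itgax was at 0.05 and Trim30a at 0.24. Leaving out single libraries, Cd4 ranged from -1.28 to 0.86, Mcpt2 from -0.89 to 0.7, Ptprc from -1.16 to 0.85 and Trim30a from -1.08 to 0.6. Leaving acinar genes out of the library size lost no call among the named genes. Genes near 1 CPM are limited by depth.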

Other observations

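Several gene families were counted after their values had been seen, so these are descriptions. Of 80 tested heavy chain variable segments (Ighv) 55 were higher in LPL (68.8%, median 3.8) and none was lower, and of 76 kappa segments (Igkv) 49 were higher (64.5%, median 3.24), beside 27.8% of all genes. Reads of such segments can be shared between near-identical copies. Of 27 alpha-defensin genes 1 was higher, with a median of 0.0. Of 5 Cyp3a genes, which metabolise drugs and steroids, 4 were lower (median -2.97). Among 275 solute carriers 60 were higher and 117 were lower (median -0.42). Zinc finger genes named Zfp were higher in 43.9% of 326 cases and lower in 3.07% (median 0.69), and snoRNA genes were higher in 14 of 17 (median 2.19).

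A set of genes of the villus tip, also gathered after seeing values, was lower in LPL. Ada, adenosine deaminase, was at 133, 566, 376 and 1110 CPM in tissue and at 9.45, 5.74, 5.98 and 4.98 CPM in LPL (-6.29, adjusted p = 0.000319). Nt5e, which makes adenosine from AMP, was at -4.70, and Slc28a2, a nucleoside transporter, at -5.50. Fabp4, a lipid carrier of adipocytes, was at 11.9, 102, 7.92 and 74.3 CPM in tissue, highest in the libraries numbered 2, and at 0 to 0.535 CPM in LPL. Tff2, a trefoil peptide of gastric and duodenal glands, was at 0, 0, 0 and 0.114 CPM in tissue and at 15.7, 13.7, 26.9 and 20.6 CPM in LPL, a read ratio of 788.5 (95% interval 141.2 to 31170, counting error only). Gkn2, a stomach peptide, was at least 67.42-fold higher in LPL. Genes divided by genomic span into 5 groups of equal size had medians of 0.26, 0.13, 0.09, 0.05 and -0.15 from the shortest to the longest.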
